A study of Homo sapiens with 6 samples.

Results

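The NRF2 antioxidant program was followed in A549 cells, a lung adenocarcinoma line, after knockdown of the chromatin factor BAP18. Members were taken as the rows of the deposited count table named for 35 genes of this program, namely the transcription factor, its inhibitor and its best known targets, out of 35474 genes in the table. All 35 rows were found, and all 35 passed the filter on low counts. Of 6 libraries, 3 came from cells given siRNA against BAP18 (siBAP18) and 3 from cells given non-specific siRNA (siCtrl), all harvested 48 h after transfection and sequenced from poly(A) RNA. All 6 libraries are from 1 line, and the methods list 3 BAP18 siRNAs without naming the one used here. A549 carries a KEAP1 missense mutation, as background; gene counts do not show it.

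NRF2, encoded by NFE2L2, is a transcription factor that binds antioxidant response elements together with a small MAF protein. In resting cells KEAP1 holds NRF2 for ubiquitination by a CUL3 ligase, and electrophiles or oxidants that modify KEAP1 let NRF2 accumulate. Where KEAP1 is mutated, as in A549, the program is on without stress, and enzymes for glutathione, thioredoxin, NADPH and aldehyde metabolism are abundant.

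Expression is given as CPM, counts scaled to library size with edgeR's TMM factors. Groups were compared by the quasi-likelihood test of edgeR, p-values were adjusted after Benjamini and Hochberg over all 20776 genes tested, and called means an adjusted p under 0.05. Total counts ranged from 46035635 to 53657450 in siCtrl and from 42094524 to 56548620 in siBAP18 libraries. C17orf49, which encodes BAP18, fell from 15.1 ± 1.09 to 2.41 ± 0.235 CPM (SD, n = 3 each). The epithelial keratin genes KRT8 and KRT18 were abundant in every library, and CDKN2A, which A549 has lost, had at most 7 counts. The epithelial cadherin gene CDH1 was at 63.9 CPM in siCtrl and 25.5 CPM in siBAP18, and its part in the results was not tested. Between pairs of replicates, counts differed by a chi-square per degree of freedom of 3.94 to 4.56 in siCtrl and 10.1 to 23.3 in siBAP18, so the siBAP18 libraries were the more uneven group. Mitochondrial genes took 6.87% to 7.43% of counts in siCtrl and 5.28% to 6.14% in siBAP18 libraries, and the part of this difference in the results was not tested.

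The core of the antioxidant response element, written TGACNNNGC, was searched on both strands of promoter windows from 250 bases before to 50 bases after annotated starts. Windows were given for 27 of the 35 members by RefSeq on GRCh38.p14, and ABCC3, AKR1B10, ALDH3A1, CBR3, FTH1, GSR, HMOX1 and TRIM16L had none. The core was found in 9 of these 27 (33.3%), against 19.2% of the tested genes with a window. Genes with several annotated starts, such as TXNRD1, EPHX1 and KEAP1, have more than 1 window. The 9 genes were PGD, GCLM, EPHX1, ME1, TXNRD1, GPX2, KEAP1, CBR1 and PIR, of which 6 were called lower in siBAP18 cells and 3 were not called. Called lower were 60% of all 35 members and 25.1% of all genes tested. Members with and without the core were not compared. Examples are shown because they carry the letters by which the program is defined, with the core in capitals and 8 bases on either side.
GPX2: ccccaggaTGACTTAGCaaaaacag
GCLM: gaagacaaTGACTAAGCagaaatcg
TXNRD1: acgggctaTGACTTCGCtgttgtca
CBR1: agctagccTGACTTTGCagaacccg
KEAP1: ggtcaccaTGACTAAGCagagccgg
ME1: tcctgccaTGACTCAGCgcttctcg
These lie at chr14:64942851-64942875 on the + strand (GPX2), chr1:93909448-93909472 on the + strand (GCLM), chr12:104215672-104215696 on the + strand (TXNRD1), chr21:36069857-36069881 on the - strand (CBR1), chr19:10502786-10502810 on the + strand (KEAP1) and chr6:83431172-83431196 on the - strand (ME1). The cores of ME1 and PIR also contain TGACTCA, the element of AP-1, which was present in the windows of 5.18% of tested genes and of 3 of the 27 members. A match describes the letters only, and none of these windows was assayed for binding here.

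Most of the program was lower in siBAP18 cells. Of all genes tested, 49.6% were called in either direction. Of the 35 members, 21 were called lower (60%), where 25.1% of all genes tested were, and 4 were called higher (11.4%), where 24.5% of all genes were. The 4 that rose were HMOX1, NR0B1, FTH1 and AKR1B1. The median log2 fold change of the members was −0.36, and that of all genes tested was 0.001. Only GPX2 fell by more than 1 on the log2 scale, a limit passed by 8.46% of all genes, 3.74% downward and 4.72% upward. The libraries of the groups did not overlap for 21 members with lower and 4 with higher values in siBAP18. The shares of all genes were 29% and 27.6%, or 56.6% in either direction. These 21 members include ME1, which was not called, and leave out EPHX1, which was called lower. In bulk RNA a lower level in every cell and a loss in some of the cells cannot be told apart.

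**Figure D1:**
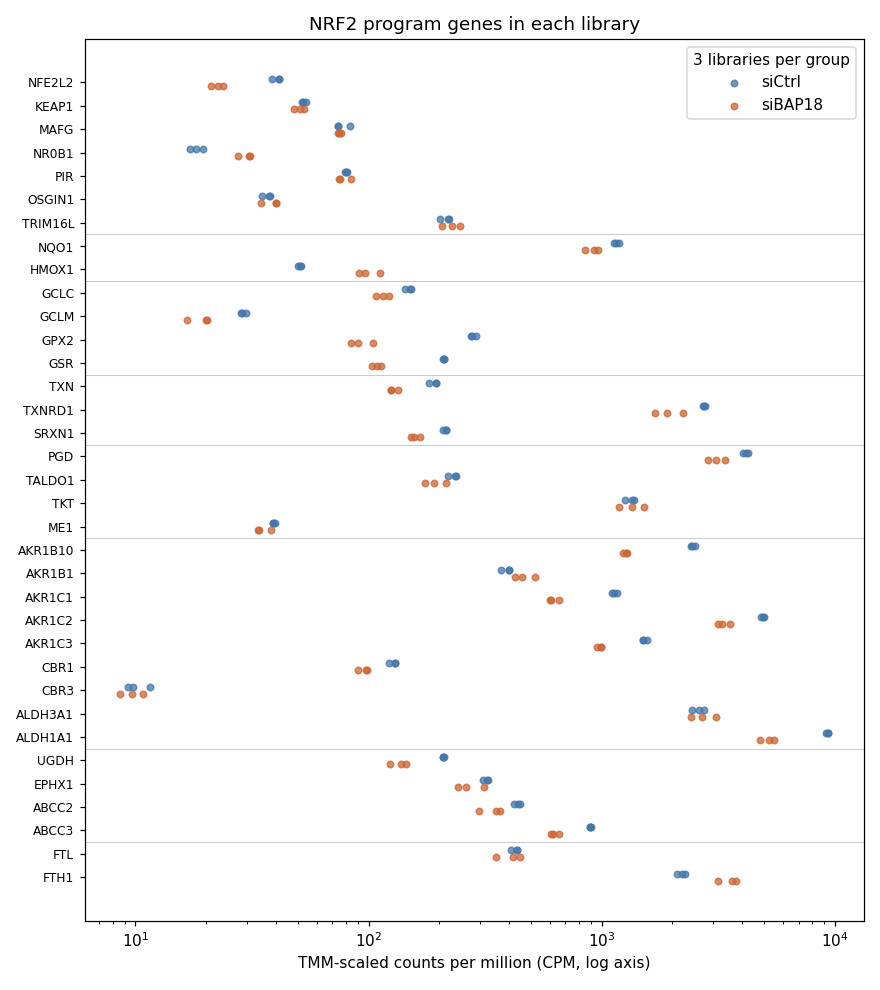
TMM-scaled CPM (log axis) of the 35 genes in each library, with siCtrl in blue and siBAP18 in orange and lines between roles. The groups stand apart for GPX2, GSR, AKR1B10, AKR1C1 and ALDH1A1, which are lower in siBAP18, and for HMOX1, NR0B1 and FTH1, which are higher.

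These genes are among the most abundant in A549. In siCtrl cells their mean RPKM, a level per kilobase of gene length, ran from 5.34 for GCLM to 3251 for ALDH1A1, and 24 of the 35 stood in the top 5% of all genes tested. Of those 24, 18 were called lower and 2 higher, while of all 1038 genes in that top 5%, 24.5% were called lower and 35.3% higher. Summed, the 35 genes made up 3.85%, 3.79% and 3.81% of all counts in the siCtrl libraries (replicates 1, 2 and 3) and 2.90%, 2.87% and 2.86% in the siBAP18 libraries. This share was therefore lower in every siBAP18 library. Summed over the members, CPM was 24.8% lower in siBAP18 cells, and without ALDH1A1, which made up 43.5% of the net fall, it was 18.5% lower.

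**Figure D2:**
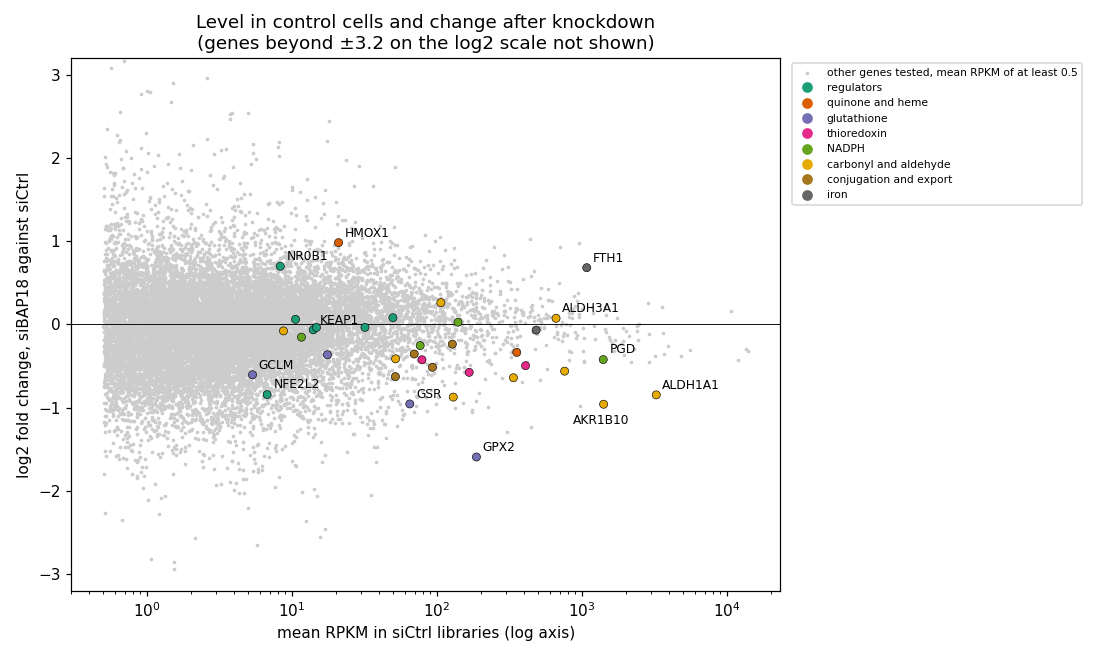
Mean RPKM in siCtrl libraries (log axis) against the log2 fold change of siBAP18 over siCtrl, with the 35 genes coloured by role and all other tested genes of at least 0.5 RPKM in grey. ALDH1A1, AKR1B10 and PGD lie to the right and below 0, FTH1 to the right and above 0, and GPX2 has the lowest value of the 35.

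The 2 genes at the top of the pathway behaved differently. NFE2L2, on chromosome 2 from 177227595 to 177392697 on the - strand of GRCh38, was at 41.2, 38.6 and 41.2 CPM in siCtrl replicates 1, 2 and 3 and at 22.5, 23.7 and 21.1 CPM in siBAP18. Every siBAP18 library was below every siCtrl library. The log2 fold change was −0.84 (standard error 0.0725, edgeR adjusted p = 5.20e-10), or 0.558 of the siCtrl level. KEAP1, on chromosome 19 from 10486120 to 10503741, was at 52.2, 51.9 and 54.1 CPM in siCtrl and at 50.6, 48.0 and 52.9 CPM in siBAP18, and the groups overlapped. Its log2 fold change of −0.06 was not called (standard error 0.0676, edgeR adjusted p = 0.456), but with offsets for GC content and gene length, chosen after the data were seen, it was −0.19 (edgeR adjusted p = 0.0026). Per length, KEAP1 (14.0 ± 0.262 RPKM) was above NFE2L2 (6.73 ± 0.182 RPKM) in siCtrl cells (SD, n = 3 each). The listed lengths behind these values were 3761 and 5979 bases, and by CPM the means were closer, at 52.8 and 40.3. Of the exonic bases of NFE2L2, 17.6% are shared with a second gene on its own strand. That gene had 551 counts over the 6 libraries against 9382 for NFE2L2. The level of NRF2 protein, which KEAP1 controls, was not measured in these files.

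Of the other members that regulate or report on the pathway, NR0B1 alone was called. NR0B1 encodes the nuclear receptor DAX1, a corepressor kept high by NRF2 in KEAP1-mutant lung cancer cells. It was at 18.2, 19.5 and 17.2 CPM in siCtrl and at 30.6, 27.6 and 30.9 CPM in siBAP18 replicates 1, 2 and 3. Its log2 fold change was 0.70 (standard error 0.0771, edgeR adjusted p = 3.76e-08), opposite in sign to that of NFE2L2. The small MAF gene MAFG (log2 fold change −0.04), the iron-binding pirin gene PIR (−0.04), the growth inhibitor gene OSGIN1 (0.06) and TRIM16L (0.08), a close copy of the ubiquitin ligase gene TRIM16, were not called (edgeR adjusted p from 0.375 to 0.693). MAFG shares 105 exonic bases with SIRT7, whose log2 fold change was 0.57, and OSGIN1 shares 481 with a second gene on its own strand, so part of these counts may belong to either.

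The glutathione genes all fell. GCLC and GCLM encode the catalytic and modifier subunits of glutamate-cysteine ligase, the rate-limiting step of glutathione synthesis, GSR recycles oxidized glutathione, and GPX2 uses glutathione to reduce peroxides. GPX2, on chromosome 14 from 64939152 to 64942905, was at 288.6, 279.2 and 274.3 CPM in siCtrl and at 90.0, 84.5 and 104.9 CPM in siBAP18 replicates 1, 2 and 3. It fell by 1.59 on the log2 scale (standard error 0.0756, edgeR adjusted p = 8.65e-15), the largest change of the 35. GSR was at 208.8, 211.8 and 210.2 CPM in siCtrl and at 108.4, 113.7 and 103.2 CPM in siBAP18 (log2 fold change −0.96, edgeR adjusted p = 9.72e-12). Thus the siBAP18 libraries held GSR at 0.516 and GPX2 at 0.332 of the siCtrl level. GCLM, the less abundant of the ligase genes per length, fell by 0.60 on the log2 scale (edgeR adjusted p = 6.77e-07). GCLC fell by 0.36 (edgeR adjusted p = 7.10e-05). GCLM was still called, with a log2 fold change of −0.30, after offsets for GC content and gene length (edgeR adjusted p = 3.17e-04), and at −0.49 with limma on log2(RPKM + 1), a scale that understates changes of low genes (limma adjusted p = 0.00215).

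All 3 thioredoxin genes were called lower. TXN encodes thioredoxin, TXNRD1 the selenoenzyme that reduces it and SRXN1 the sulfiredoxin that repairs overoxidized peroxiredoxins. TXN was at 194.7, 194.8 and 182.3 CPM in siCtrl and at 124.9, 124.6 and 134.2 CPM in siBAP18, a log2 fold change of −0.58 (standard error 0.0661, edgeR adjusted p = 7.04e-08). TXNRD1 was at 2738, 2766 and 2719 CPM in siCtrl and at 1912, 2230 and 1689 CPM in siBAP18, a log2 fold change of −0.50 (standard error 0.0800, edgeR adjusted p = 1.20e-05). The siBAP18 libraries were below siCtrl for both, and their spread for TXNRD1 (SD 271.9 CPM) was over that of siCtrl (SD 23.8 CPM). SRXN1 fell by 0.42 (edgeR adjusted p = 6.44e-06). Of its exonic bases, 85% are shared with an unnamed gene on the same strand that had 52578 counts over the 6 libraries against 55479 for SRXN1, so reads here cannot be assigned to 1 of them.

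Of the NADPH genes, PGD and TALDO1 were called lower and TKT and ME1 were not called. PGD and TALDO1 encode the oxidative 6-phosphogluconate dehydrogenase and the transaldolase of the pentose phosphate pathway, TKT its transketolase, and ME1 the cytosolic malic enzyme. PGD was at 4246, 4062 and 4182 CPM in siCtrl and at 3093, 2848 and 3380 CPM in siBAP18 (log2 fold change −0.42, standard error 0.0716, edgeR adjusted p = 2.27e-05). TALDO1 had a log2 fold change of −0.25 (edgeR adjusted p = 0.00549). The groups did not overlap for these enzymes. TKT was at 1330 ± 60.7 CPM in siCtrl and 1355 ± 165 CPM in siBAP18 (SD, n = 3 each), with a log2 fold change of 0.03 (edgeR adjusted p = 0.80), and its sign turned without siCtrl replicate 2 or siBAP18 replicate 3. ME1 had a log2 fold change of −0.15 (edgeR adjusted p = 0.0783), though its groups did not overlap either. It was called without siBAP18 replicate 2 (−0.22, edgeR adjusted p = 0.00847).

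Among the carbonyl and aldehyde enzymes, 6 of 9 were called lower and 1 higher. The aldo-keto reductases AKR1B10, AKR1C1, AKR1C2 and AKR1C3 and the carbonyl reductase CBR1 reduce aldehydes and ketones with NADPH, and ALDH1A1 and ALDH3A1 oxidize aldehydes. AKR1B10 was at 2511, 2423 and 2455 CPM in siCtrl and at 1288, 1236 and 1278 CPM in siBAP18 replicates 1, 2 and 3. It fell by 0.96 on the log2 scale (standard error 0.0657, edgeR adjusted p = 8.89e-12). ALDH1A1, a retinaldehyde dehydrogenase and the most abundant member per length, was at 9375, 9153 and 9320 CPM in siCtrl and at 5205, 5480 and 4803 CPM in siBAP18 (log2 fold change −0.85, standard error 0.0699, edgeR adjusted p = 2.50e-10). Both were separated between the groups by far more than the spread within them. The other aldehyde dehydrogenase, ALDH3A1, was at 2626, 2432 and 2741 CPM in siCtrl and at 2695, 2430 and 3084 CPM in siBAP18, with overlapping groups. Its log2 fold change of 0.07 was not called (edgeR adjusted p = 0.465), but without siBAP18 replicate 2 it was 0.15 (edgeR adjusted p = 0.0488) and without siBAP18 replicate 3 it was −0.02.

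The AKR1C genes lie side by side on chromosome 10, between 4963253 and 5107686, and are so alike that reads may be shared between them. AKR1C1 was at 1167, 1134 and 1107 CPM in siCtrl and at 606.8, 598.8 and 655.5 CPM in siBAP18 (log2 fold change −0.87, standard error 0.0670, edgeR adjusted p = 6.64e-11). AKR1C2 was at 4974, 4843 and 4916 CPM in siCtrl and at 3270, 3158 and 3556 CPM in siBAP18 (log2 fold change −0.56, standard error 0.0686, edgeR adjusted p = 1.96e-07). Within each library the ratio of AKR1C1 to AKR1C2 counts was 0.235, 0.234 and 0.225 in siCtrl and 0.186, 0.190 and 0.184 in siBAP18 replicates 1, 2 and 3. These ratios did not overlap. When both genes were summed, of which AKR1C2 gave 82.4% of the counts, the log2 fold change was −0.61 (edgeR adjusted p = 4.76e-08). AKR1C3, a prostaglandin F synthase, fell by 0.64 (edgeR adjusted p = 9.94e-09), and CBR1 fell by 0.41 (edgeR adjusted p = 1.13e-05). Of the exonic bases of CBR1, 18.9% are shared with a gene on the opposite strand, whose log2 fold change was −0.46.

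AKR1B1, the aldose reductase gene beside AKR1B10 on chromosome 7, differed from its neighbor. It was at 399.3, 370.5 and 399.2 CPM in siCtrl and at 457.0, 426.5 and 517.9 CPM in siBAP18 replicates 1, 2 and 3. The groups did not overlap, and the log2 fold change was 0.26 (standard error 0.0730, edgeR adjusted p = 0.00421). With offsets for GC content and gene length it was no longer called (log2 fold change 0.13, edgeR adjusted p = 0.0556), nor without siCtrl replicate 2 (0.22, edgeR adjusted p = 0.05). CBR3, the lowest member by CPM, was at 10.2 ± 1.22 in siCtrl and 9.68 ± 1.08 in siBAP18 (SD, n = 3 each) and was not called (edgeR adjusted p = 0.565). Of its exonic bases, 42.2% are shared with the antisense gene CBR3-AS1, and use of strand by the counting program is not given in the sources used here.

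Genes of conjugation and export were all called lower. UGDH makes the UDP-glucuronate used in glucuronidation, EPHX1 is the microsomal epoxide hydrolase, and ABCC2 and ABCC3 are pumps for glutathione and glucuronide conjugates. UGDH was at 210.7, 208.9 and 208.1 CPM in siCtrl and at 137.4, 145.4 and 123.4 CPM in siBAP18 (log2 fold change −0.63, standard error 0.0691, edgeR adjusted p = 3.67e-08). ABCC3 was at 891.9, 900.6 and 894.3 CPM in siCtrl and at 619.3, 607.1 and 654.1 CPM in siBAP18 (log2 fold change −0.51, standard error 0.0652, edgeR adjusted p = 3.48e-07). Both were lower in every siBAP18 library. ABCC2 fell by 0.36 (edgeR adjusted p = 2.75e-04) but was not called with limma on log2(RPKM + 1) without a filter (limma adjusted p = 0.0626). EPHX1 was the only called member whose groups overlapped, with 311.2 to 327.0 CPM in siCtrl and 241.9 to 313.1 CPM in siBAP18. Its log2 fold change of −0.24 (edgeR adjusted p = 0.0137) was not called without siCtrl replicate 3 (edgeR adjusted p = 0.0608) or without siBAP18 replicate 1 (edgeR adjusted p = 0.0797).

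**Figure D3:**
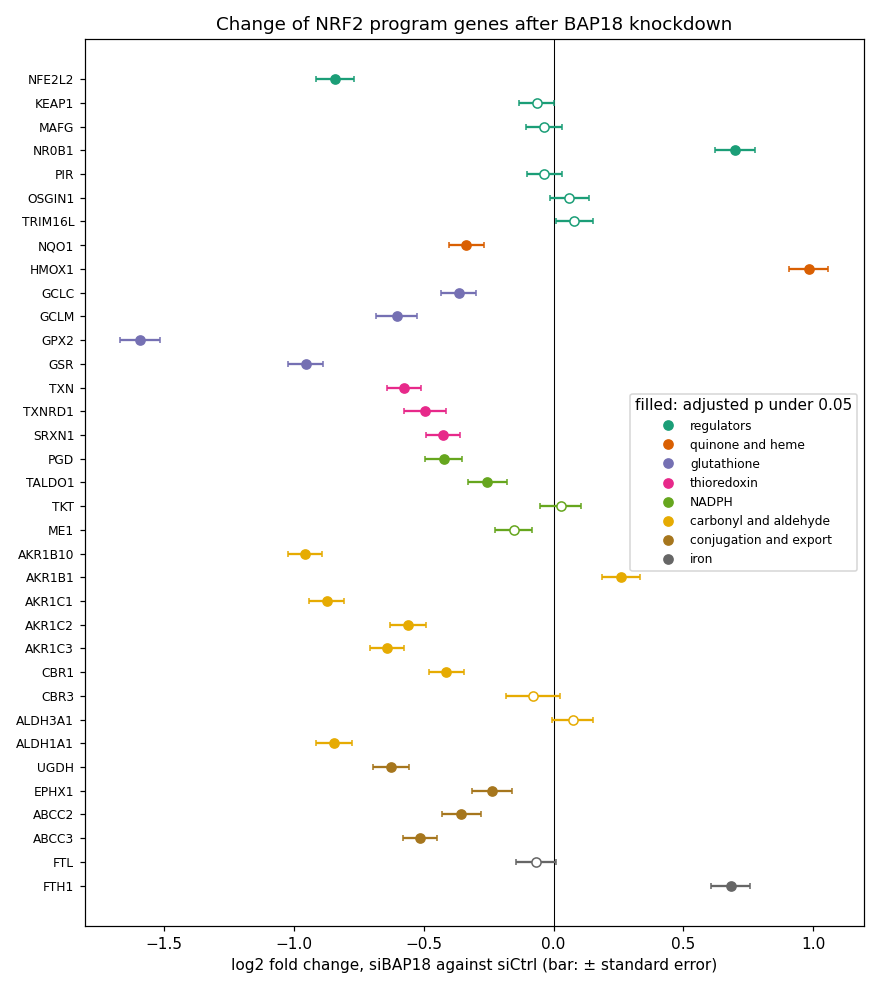
Log2 fold change of siBAP18 over siCtrl for the 35 genes, coloured by role, with bars of 1 standard error in each direction and filled points for an adjusted p under 0.05. All 4 glutathione, all 3 thioredoxin and all 4 conjugation and export genes lie left of 0, and HMOX1, NR0B1, FTH1 and AKR1B1 lie to the right.

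NQO1 and HMOX1, both classic NRF2 targets, moved in opposite directions. NQO1 encodes a quinone reductase that passes both electrons at once. It was at 1183, 1154 and 1131 CPM in siCtrl and at 930.5, 848.7 and 968.3 CPM in siBAP18, and fell by 0.34 on the log2 scale (standard error 0.0683, edgeR adjusted p = 2.09e-04). Of the exonic bases of NQO1, 17.7% are shared with a gene on the opposite strand, whose log2 fold change was −0.56. HMOX1, on chromosome 22 from 35380361 to 35394214, encodes heme oxygenase 1, which frees iron from heme and is also held down by the repressor BACH1. HMOX1 was at 50.6, 49.6 and 51.1 CPM in siCtrl and at 96.3, 90.8 and 112.0 CPM in siBAP18, and rose by 0.98 (standard error 0.0748, edgeR adjusted p = 5.84e-11). This is 1.98 times the siCtrl level, and every siBAP18 library was above every siCtrl library. Without siBAP18 replicate 2 its log2 fold change was 1.05.

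The ferritin genes did not move together. FTH1 and FTL encode the heavy and light chains of ferritin, the cytosolic iron store, which is also controlled after transcription by iron. FTH1 was at 2272, 2098 and 2209 CPM in siCtrl and at 3620, 3144 and 3787 CPM in siBAP18 (log2 fold change 0.68, standard error 0.0740, edgeR adjusted p = 2.83e-08). FTL was at 434.1, 407.5 and 432.2 CPM in siCtrl and at 415.1, 352.7 and 447.2 CPM in siBAP18 (log2 fold change −0.07, standard error 0.0760, edgeR adjusted p = 0.484). The FTL groups overlapped, and FTL was called lower without siBAP18 replicate 3 (−0.14, edgeR adjusted p = 0.0494) and with offsets for GC content and gene length (−0.27, edgeR adjusted p = 2.57e-04). Within each library the ratio of FTH1 to FTL counts was 5.23, 5.15 and 5.11 in siCtrl and 8.72, 8.91 and 8.47 in siBAP18 replicates 1, 2 and 3, without overlap. When 19 named FTH1 pseudogenes were added to FTH1 the log2 fold change was 0.68, and with 8 named FTL pseudogenes added FTL was at −0.07. FTH1 shares 1267 exonic bases with BEST1 on the opposite strand, and BEST1, known as a channel gene of the retinal pigment epithelium, had 721477 counts over the 6 libraries against 855753 for FTH1. Its log2 fold change was 0.67 (edgeR adjusted p = 3.53e-08), and whether reads were counted for both genes was not tested.

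**Figure D4:**
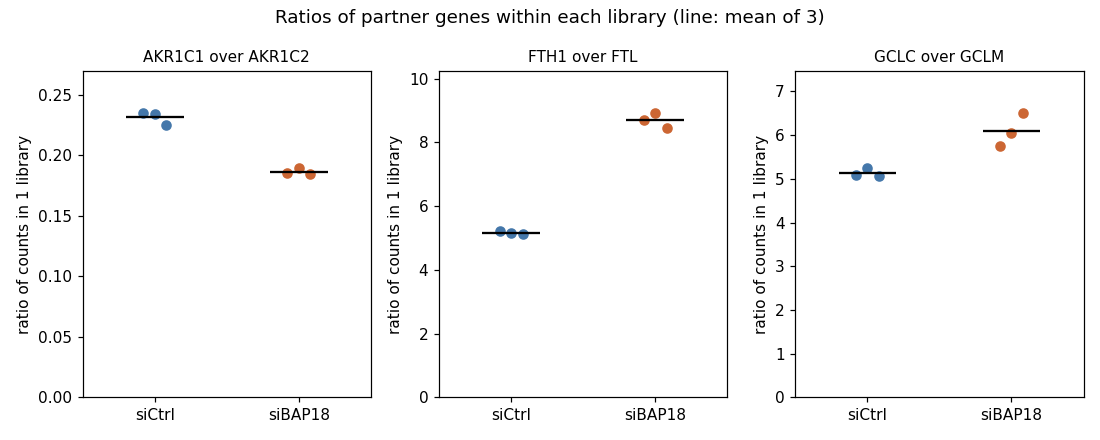
Ratio of counts within each library for AKR1C1 over AKR1C2, FTH1 over FTL and GCLC over GCLM, with 1 point per library, a line at the mean of 3 and axes from 0. The groups do not overlap in any panel, and siBAP18 is lower in the first and higher in the other panels.

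The subunits of glutamate-cysteine ligase also changed unequally. The ratio of GCLC to GCLM counts was 5.08, 5.25 and 5.06 in siCtrl and 5.75, 6.05 and 6.50 in siBAP18 replicates 1, 2 and 3. All 3 ratios were picked for display after the values had been seen, so no test was run on them.

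Replicates 2 and 3 were the siBAP18 pair whose counts differed most over the genes (chi-square per degree of freedom 23.3). Being the pair that differed most over the genes, they were likely also to stand at opposite ends in many members, and did in most. In 20 members, among them NQO1, HMOX1, PGD, TKT, ALDH3A1, FTL and FTH1, the highest siBAP18 value was in replicate 3 and the lowest in replicate 2. In 9 members, namely NFE2L2, GCLC, GCLM, GSR, TXNRD1, ME1, ALDH1A1, UGDH and ABCC2, the order was the reverse. The median GC content of the longest annotated transcript was 54.7% in the former and 44.3% in the latter, and the median exonic length was 3357 and 5420 bases. The share of all genes in either order was not counted. With offsets for GC content and gene length, NFE2L2 fell by 0.79, GPX2 by 1.78 and GSR by 1.03, and the count of members called lower was 25. This fit covered the 16463 genes with a GC value, of which 4447 were called lower and 4523 higher (54.5% together). On the same genes without offsets, 21 members were called lower and 4 higher. Of all these genes, 4601 were then called lower and 4271 higher (53.9% together). The offsets also moved GCLC to −0.24 and AKR1C2 to −0.31, nearer to 0, and TALDO1 and EPHX1 to −0.40, farther from 0, and all 4 were still called lower. Part of the siBAP18 guide sequences was also compared with the members. The 3′ UTR word ACTCAAC, which pairs with bases 2 to 8 of the siBAP18#3 guide, was in no member, where 7.5% of 13740 tested genes with an annotated 3′ UTR held it. The word AATCACA of the siBAP18#1 guide was in 7 members, namely GCLC, GCLM, GSR, SRXN1, AKR1C1, AKR1C2 and FTH1. These are 20% of members, where 15.1% of genes held the word. The word AAGATTC of the siBAP18#2 guide was in AKR1C1 and AKR1C2, or 5.71% of members, where 12.1% of genes held it. The median log2 fold change of members with the siBAP18#1 word was −0.56 and of the 28 without it −0.245, and over all genes it was −0.14 with and 0.01 without the word. For the siBAP18#2 word the medians over all genes were −0.13 and 0.004, and for the siBAP18#3 word −0.25 and 0.005. Genes with and without a word were not matched for the length or base content of their 3′ UTRs. The part of these words in the results was not tested.

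Genes that control NRF2 were followed with a list of 18, of which 6 were called higher (33.3%) and 3 lower (16.7%), beside 24.5% and 25.1% of all genes. Small MAF proteins are the partners NRF2 needs on DNA, and BACH1 and BACH2 compete for the same elements as repressors. MAFF was at 19.7 CPM in siCtrl and 85.1 in siBAP18, and rose by 2.11 on the log2 scale (standard error 0.0727, edgeR adjusted p = 1.28e-17). MAFK rose by 0.79 (edgeR adjusted p = 2.99e-10), so that MAFG was the one small MAF gene not called. BACH1 fell by 0.98 on the log2 scale, from 11.6 to 5.82 CPM (standard error 0.111, edgeR adjusted p = 5.39e-08). SQSTM1 encodes p62, an autophagy receptor that takes KEAP1 away from NRF2, and rose by 1.00 from 745.7 to 1492 CPM (standard error 0.0698, edgeR adjusted p = 1.18e-11). CUL3, the scaffold of the KEAP1 ligase, fell by 0.22 (edgeR adjusted p = 0.0136), and its partner RBX1 was not called (log2 fold change 0.20, edgeR adjusted p = 0.101). Of the NRF2 relatives, NFE2L1 rose by 0.24 (edgeR adjusted p = 0.00347) and NFE2L3 fell by 0.66 (edgeR adjusted p = 1.93e-05).

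A further list held 77 other redox genes and reported NRF2 targets, and 74 of them were tested. Of these, 35 were called lower (47.3%) and 15 higher (20.3%), beside the 25.1% and 24.5% of all genes. Past 1 on the log2 scale, 4 of these 74 fell and 4 rose. Of all genes tested, 3.74% were called lower and 4.72% higher past that limit. SLC7A11, the cystine importer that feeds glutathione synthesis, fell by 1.12 from 72.9 to 33.5 CPM (standard error 0.0725, edgeR adjusted p = 3.12e-12). With offsets for GC content and gene length SLC7A11 was at −0.73, still called (edgeR adjusted p = 1.46e-10), and 3 list genes then fell past 1, as they did with limma on log2(RPKM + 1). CYP4F3 and CYP4F11, fatty acid hydroxylases close enough in sequence to share reads, fell by 1.92 and 1.42, and LRP8, a lipoprotein receptor, fell by 1.49. With limma on log2(RPKM + 1) CYP4F3 was at −1.19. The partner of SLC7A11, SLC3A2, which also serves other amino acid transporters, rose by 0.49 (edgeR adjusted p = 2.65e-06).

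The 4 that rose past 1 were TXNIP, GDF15, SESN2 and GPX1. TXNIP, which binds and inhibits thioredoxin, rose by 1.52 from 16.0 to 45.9 CPM (standard error 0.0811, edgeR adjusted p = 8.51e-14). GDF15, a stress-induced cytokine, and SESN2, which restrains mTORC1, are also known as targets of p53 and ATF4, and rose by 1.47 and 1.40. Glutathione peroxidases went in different directions. GPX1 rose by 1.25 (edgeR adjusted p = 7.21e-12) and the lipid peroxidase GPX4 by 0.50 (edgeR adjusted p = 1.30e-05), while GPX2 was at 0.332 of its siCtrl level. Thioredoxin reductases split as well, with the mitochondrial TXNRD2 higher (log2 fold change 0.83, edgeR adjusted p = 3.77e-09) and TXNRD1 lower. Genes called lower included PRDX1 (log2 fold change −0.67), PTGR1 (−0.65), IDH1 (−0.58), MGST1 (−0.57), ABCC1 (−0.49) and ABCC4 (−0.97). The glucuronosyltransferase genes UGT1A1, UGT1A6 and UGT1A7 were called higher (log2 fold change 0.50 to 0.58) but share exons of 1 locus.

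**Figure D5:**
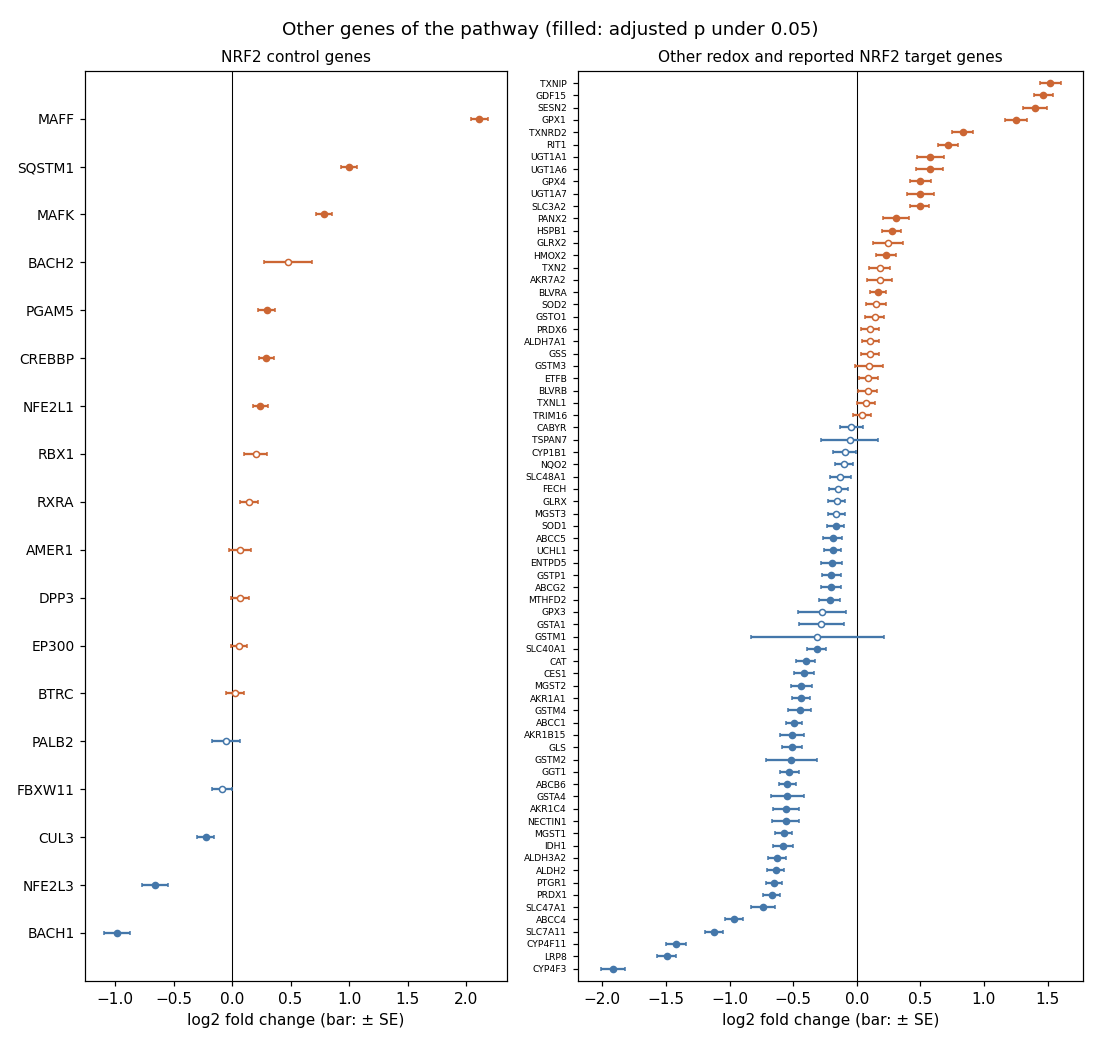
Log2 fold change with bars of 1 standard error for 18 NRF2 control genes (left) and 73 of the 74 other redox and reported NRF2 target genes tested (right), ordered by value, with filled points for an adjusted p under 0.05. MAFF has the highest and BACH1 the lowest value on the left, and the filled points on the right are mostly below 0.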

How the data were processed

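Per the labels, libraries were strand-specific (dUTP), and genome builds named in the submitters' processing notes are hg38 and GRCm38. The exon positions in the tables are those of GRCh38. The authors deposited whole-number counts per gene, not normalized, and RPKM values, which equal counts per kilobase of listed length relative to each library's column total. Aligner, counting program and use of strand are not given in the sources used here. After filterByExpr and TMM scaling, groups were compared in edgeR 4.0.16 (R 4.3.3). The standard error is the log2 fold change over the square root of F. Alternatives (other scalings, filters and tests, a replicate block, each library left out, copies summed, GC and length offsets) used DESeq2 1.42.0 and limma 3.58.1, the latter on log2(RPKM + 1) or log2(RPKM + 0.1), keeping genes that averaged 0.5 RPKM or more, or all genes. The steps were tested on simulated data. Members and lists were chosen with earlier results of these data known. Named were all members, with full statistics for NFE2L2, KEAP1 and up to 3 called members a role by size of change, and list genes past a log2 fold change of 1. Other list genes, and other members given library by library, were picked after their values were seen. GC content and 3′ UTRs came from GENCODE 29. All p-values measure the spread between these 3 libraries a group, which the labels call biological replicates. A few items are not reported here. Plots used matplotlib 3.10.9 under Python 3.11.15.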

Additional observations from a re-analysis of the deposited data

How the results depend on the processing

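The counts of members called were 21 lower and 4 higher under every other scaling (DESeq2 size factors, upper quartile, library totals), the DESeq2 Wald test, a minimum of 10 counts a library, no minimum, both limma fits with a filter, and copies summed. Of the genes given an adjusted p in each fit, 48% to 49.6% were called in either direction under the other scalings. The shares were 33.6% with the Wald test, 52.7% with the minimum of 10 counts and 29.3% with no minimum. They were 49.9% and 50.3% with the filtered limma fits and 49.6% with copies summed. Without a filter limma called 19 members lower and 22.1% of its genes in either direction. With 1 library left out at a time, 20 to 22 members were lower and 3 to 5 higher. Those fits called 42% to 50.2% of their genes. In them, 0 to 1 members rose past 1 on the log2 scale (HMOX1, 0.89 to 1.05, over 1 without siBAP18 replicate 1 or 2). Offsets for GC content and gene length, chosen after the data were seen and fitted on the 16463 genes with a GC value, gave 3 members lower past 1 (GPX2, GSR, AKR1B10), called KEAP1, PIR (−0.18), CBR3 (−0.26) and FTL lower, and turned the sign of OSGIN1 (−0.079), TRIM16L (−0.019), TKT (−0.023), ME1 (0.057) and ALDH3A1 (−0.054), none of these called in that fit. Those genes without offsets gave 21 lower, 4 higher and 1 lower past 1. Of all 16463 genes, 54.5% were called with and 53.9% without offsets. Left-out libraries turned the sign of members not called with all 6 libraries, within these ranges: MAFG −0.07 to 0.018, TKT −0.063 to 0.11, CBR3 −0.16 to 0.019, ALDH3A1 −0.019 to 0.15 and FTL −0.143 to 0.022. The cause was not tested. A replicate block called 52% of its genes in either direction and 22 members lower, adding ME1 (log2 fold change −0.16, edgeR adjusted p = 0.0486). Between libraries of the same replicate number, correlations of residuals were small and positive (0.0252, 0.12 and 0.048). Of the 6 libraries, 5 correlated best with the library of their own number. Whether the numbers mark pairs was not tested. Depth was no limit for the members, the lowest of which, CBR3, had at least 392 counts in every library.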
